A study of Mus musculus with 6 samples.

Results

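Myod1, Myog, Myf5 and Myf6 encode the myogenic regulatory factors, and Pax7, Cdh15 and Msc are genes of satellite cells and myoblasts. They were examined in healing bone of Cyp24a1 (-/-) mice and of their Cyp24a1 (+/-) littermates. Probe sets were taken by symbol: all those of the array annotation with exactly 1 gene symbol that is one of these 7 genes. This gave all 7 of these genes, of 18193 named in this way, on 9 probe sets of the 45037 tested, 2 each for Myod1 and Pax7 and 1 for each of the others. They are known genes of one lineage, picked for description from the null minus heterozygous differences of these same 6 arrays, so those differences are given as descriptions without a test.

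The series compared callus, the repair tissue of a bone break, between 3 null and 3 heterozygous samples. All mice were of a C57BL6J x 129SV mixed background and were 12 weeks old at tibial osteotomy, the cut being stabilised by a rod in the marrow cavity, and callus was collected on day 14. Both groups therefore carried a disrupted Cyp24a1 allele, the heterozygous mice 1 and the null mice 2, and mice with intact alleles were not analysed here. The labels do not say how the allele was made, or whether the samples are from separate mice, so spread between samples may be partly technical. Total RNA was hybridised to Affymetrix Mouse 430_2 arrays, and values are on the log2 scale, so a difference is the log2 of a ratio. They are compared between arrays for 1 probe set at a time and not between probe sets.

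Skeletal muscle is repaired by satellite cells, the stem cells that lie between a muscle fibre and its basement membrane. Pax7 is the paired-box transcription factor that marks and maintains them. On activation they divide as myoblasts that carry Myf5 and MyoD (Myod1), switch on myogenin (Myog) as they leave the cell cycle, and fuse into fibres. MRF4 (Myf6) is the family member most abundant in mature fibres. The 4 factors are basic helix-loop-helix proteins that pair with E proteins and bind the DNA sequence CANNTG, the E-box. Myod1 and Myog transcripts are also known to rise in muscle fibres that lose their nerve supply. Cdh15 encodes M-cadherin, an adhesion molecule between satellite cell and fibre, and Msc encodes musculin (MyoR), a helix-loop-helix repressor found in myoblasts.

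The RefSeq promoter table (build GRCm38.p6, 250 bases before to 50 bases after a gene's start) held 4 of the 7 genes, namely Myog, Myf5, Pax7 and Cdh15. The windows of 3 of these are shown, those that held a match to either motif searched. The Pax7 window held 0 matches and is not printed. CANNTG, which reads the same class of sequence on both strands, and TATAAA were searched on both strands. Matches are in capitals and each window is written 5′ to 3′ in the direction of the gene. The Myog window is chr1:134289754-134290053 on the + strand, the Myf5 window chr10:107486085-107486384 on the - strand, and the Cdh15 window chr8:122848124-122848423 on the + strand.
Myog: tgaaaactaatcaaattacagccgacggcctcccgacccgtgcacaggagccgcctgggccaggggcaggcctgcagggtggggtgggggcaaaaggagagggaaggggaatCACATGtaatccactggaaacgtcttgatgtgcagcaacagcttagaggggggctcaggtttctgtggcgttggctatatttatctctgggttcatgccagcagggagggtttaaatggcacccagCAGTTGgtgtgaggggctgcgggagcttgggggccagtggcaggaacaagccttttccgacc
Myf5: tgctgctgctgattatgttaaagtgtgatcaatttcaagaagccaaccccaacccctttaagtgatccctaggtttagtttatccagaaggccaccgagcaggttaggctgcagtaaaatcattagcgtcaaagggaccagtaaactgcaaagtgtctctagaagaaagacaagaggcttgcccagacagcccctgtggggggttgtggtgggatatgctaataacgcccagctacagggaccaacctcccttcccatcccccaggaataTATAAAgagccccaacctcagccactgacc
Cdh15: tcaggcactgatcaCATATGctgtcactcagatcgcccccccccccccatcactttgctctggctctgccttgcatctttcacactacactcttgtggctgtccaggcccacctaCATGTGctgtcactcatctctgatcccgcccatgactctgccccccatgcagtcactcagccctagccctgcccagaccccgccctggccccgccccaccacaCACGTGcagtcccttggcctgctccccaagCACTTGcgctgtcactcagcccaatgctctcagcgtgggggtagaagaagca
The Myog window held 2 E-boxes, whose first bases lay 138 and 12 bases before the start. The Cdh15 window held 4, and the Myf5 and Pax7 windows held 0. Myf5 held 1 TATAAA, and its first base lay 20 bases after the start of the gene as RefSeq gives it. Of all 32851 windows in the table, 72.3% held at least 1 CANNTG and 13.6% held TATAAA, so an E-box in a window of this length was common. In the RefSeq gene order, Myf5 and Myf6 are neighbours on chromosome 10 with no other protein-coding gene between them, and Msc lies beside Eya1, a transcriptional coactivator of the muscle lineage, on chromosome 1.

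The samples were not alike in their marrow content. Null replicate 1 and heterozygous replicate 3 were low in marrow transcripts: all 10 measured neutrophil genes and all 9 measured erythroid genes had their lowest values on these 2 arrays. The mean of the neutrophil genes, each centred over the arrays, was -2.99 on null replicate 1 and 1.43 to 1.96 on the other null arrays, and -3.55 on heterozygous replicate 3 against 1.55 to 1.60 on the other heterozygous arrays. The array medians ranged from 4.55 to 4.59. Skeletal muscle was present in every sample, with Acta1, the skeletal actin gene, with a lowest value of 14.40 over the arrays and Ckm, the muscle creatine kinase gene, with a lowest value of 13.60, near the top of the scale (14.49). Bone and cartilage genes of the callus were present too: 9 of 9 measured osteoblast genes and 7 of 10 chondrocyte genes lay on all arrays above 3.52, the highest value that Xist and Y-linked transcripts had on arrays lacking them. Cyp24a1, the targeted gene, averaged 3.36 ± 0.25 in null against 2.90 ± 0.19 in heterozygous callus on probe set 1418866_at, and 3.27 ± 0.17 in null against 3.34 ± 0.30 in heterozygous callus on 1418867_at (SD, n = 3 each). These means lay under the 3.52 of silent transcripts, and no source used here says where the probe sets lie relative to the disruption, so they do not check the genotype labels.

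Myod1 and Myf6 were the members with lower values in every null sample than in any heterozygous sample. Myod1 (1418420_at) was at 9.34, 8.63 and 7.79 in null callus, against 9.89, 9.61 and 10.10 in heterozygous callus. The highest null value lay under the lowest heterozygous one, and the null values were the more spread. The means were 8.59 ± 0.78 for null and 9.86 ± 0.25 for heterozygous samples (SD, n = 3 each), a null minus heterozygous difference of -1.28 (SE 0.38), or a heterozygous level 2.42 times that of null callus. The second Myod1 probe set, 1447675_x_at, was at 2.27, 2.21 and 2.15 in null callus, against 2.48, 2.59 and 2.52 in heterozygous callus. It lay under 3.52 on all 6 arrays, so it had the same order of groups at a level not above that of silent transcripts, and no fold is given for it.

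Myf6, whose protein is the MRF4 of mature fibres, was at 11.06, 11.01 and 10.32 in null callus, against 11.81, 11.55 and 11.86 in heterozygous callus. Null replicate 3 was lowest, as for Myod1, and the heterozygous values lay within 0.30 of each other. The means were 10.80 ± 0.42 for null and 11.74 ± 0.16 for heterozygous samples (SD, n = 3 each), a difference of -0.94 (SE 0.22), which is a heterozygous level 1.92 times the null one. Over all probe sets, 5.38% had groups without overlap and the lower values in null callus, against 3 of the 9 probe sets here. Since the genes were chosen with this contrast known, nothing is read from that count. In limma's test across all probe sets, 0 passed an adjusted p of 0.05 (Benjamini-Hochberg, lowest adjusted p = 0.775). An unadjusted p under 0.05 was reached by 1660, or 3.69%, and the plain equal-variance test likewise passed 0 after adjustment. In tissue RNA, fewer fibres or satellite cells and less transcript per cell cannot be told apart.

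**Figure D1:**
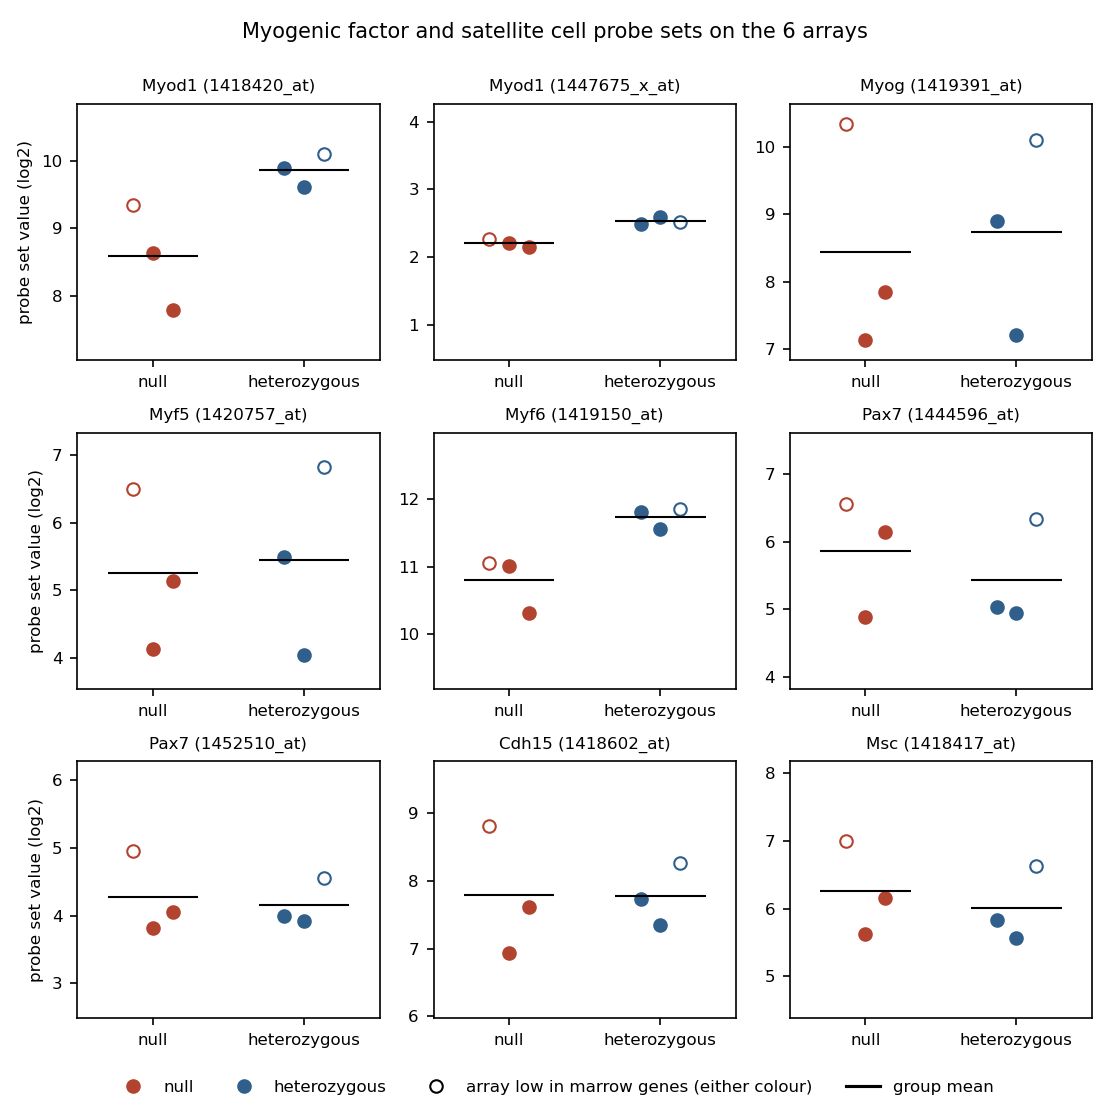
Log2 value of each of the 9 probe sets (vertical axis, the same span of 3.8 in each panel) in the 3 null and the 3 heterozygous samples, with the group mean as a line. Open circles are null replicate 1 and heterozygous replicate 3, the samples low in marrow genes. The groups are separate for Myod1 and Myf6, whereas for Myog, Myf5, Pax7, Cdh15 and Msc the groups overlap and the open circles are the 2 highest of the 6 points.

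Myog, which drives terminal differentiation, had a different profile. It was at 10.33, 7.14 and 7.85 in null callus, against 8.90, 7.21 and 10.10 in heterozygous callus. The groups overlapped almost fully, each with 1 sample above 10 and 1 near 7. The means were 8.44 ± 1.68 for null and 8.74 ± 1.45 for heterozygous samples (SD, n = 3 each), and the difference of -0.30 (SE 1.01) was smaller than its error. The high samples were the 2 low in marrow genes: null replicate 1 lay 2.84 above the mean of the other null samples, and heterozygous replicate 3 lay 2.04 above that of the other heterozygous samples. Without these 2, the difference was -0.57 (SE 0.57, n = 2 each).

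Myf5, the early factor of myoblasts, was at 6.49, 4.13 and 5.13 in null callus, against 5.49, 4.04 and 6.83 in heterozygous callus. Its difference was -0.20 (SE 0.84), with means of 5.25 ± 1.19 for null and 5.45 ± 1.39 for heterozygous samples (SD, n = 3 each). Again null replicate 1 and heterozygous replicate 3 were highest, 1.87 and 2.06 above the other samples of their groups. Myf5 thus differed from its chromosomal neighbour Myf6, which varied by 1.54 over all 6 samples, against 2.79 for Myf5, and whose groups did not overlap.

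Among the satellite cell genes, Pax7 (1444596_at) was at 6.55, 4.88 and 6.14 in null callus, against 5.03, 4.94 and 6.33 in heterozygous callus. The means of 5.86 ± 0.87 for null and 5.44 ± 0.78 for heterozygous samples (SD, n = 3 each) differed by 0.42 (SE 0.54). Null replicate 3, which had the lowest Myod1 and Myf6, was the third highest sample for Pax7. The second Pax7 probe set, 1452510_at, was at 4.95, 3.82 and 4.05 in null callus, against 3.99, 3.92 and 4.56 in heterozygous callus, a difference of 0.12 (SE 0.33). Both had their highest values on null replicate 1 and heterozygous replicate 3.

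Cdh15 was at 8.81, 6.93 and 7.62 in null callus, against 7.73, 7.36 and 8.27 in heterozygous callus. The means, 7.79 ± 0.95 for null and 7.78 ± 0.46 for heterozygous samples (SD, n = 3 each), differed by 0.0051 (SE 0.49), and the null samples bracketed all heterozygous ones. Msc was at 6.999, 5.63 and 6.16 in null callus, against 5.83, 5.56 and 6.63 in heterozygous callus. Its means of 6.26 ± 0.69 for null and 6.01 ± 0.56 for heterozygous samples (SD, n = 3 each) differed by 0.25 (SE 0.41), and the groups overlapped. Single samples set the sign for several genes. Leaving out null replicate 1 turned it for Cdh15 (-0.51), Msc (-0.12) and Pax7 1452510_at (-0.22). It turned for Myog and Myf5 without null replicate 2 (0.35 and 0.36) and without heterozygous replicate 3 (0.38 and 0.49). For Cdh15 it turned also without heterozygous replicate 1 (-0.023) or replicate 2 (-0.21), and for Pax7 1452510_at also without heterozygous replicate 2 (-0.0035). Myod1 1418420_at and Myf6 ranged from -1.65 to -0.88 and from -1.07 to -0.70 without each sample. As their groups do not overlap, leaving out samples cannot turn the sign, so nothing is read from the kept sign.

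**Figure D2:**
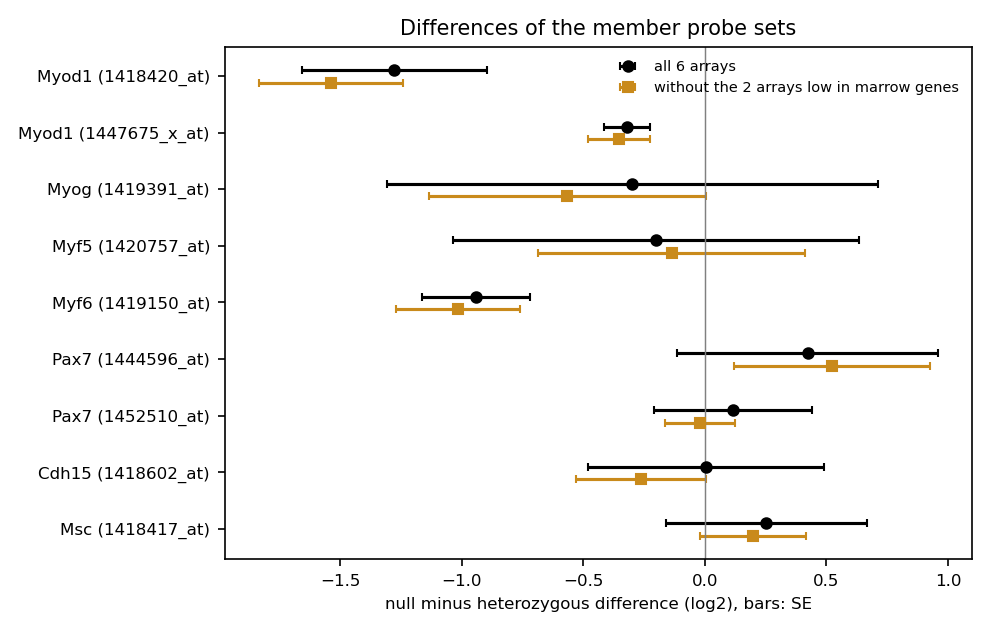
Null minus heterozygous difference of each probe set in log2 units (horizontal axis), with bars of 1 SE, for all 6 arrays and without the 2 arrays low in marrow genes. Myod1 1418420_at lies at -1.28 and -1.54 and Myf6 at -0.94 and -1.01. The intervals of Myog, Myf5, Pax7 1452510_at, Cdh15 and Msc reach 0 in both settings. That of Pax7 1444596_at reaches 0 only with all 6 arrays.

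In all, 6 of the 9 probe sets, from 5 of the 7 genes, had their 2 highest values on null replicate 1 and heterozygous replicate 3. This held for 16.2% of all probe sets and 16.4% of all genes. The excess over the other 4 samples was 2.44 for Myog, 1.97 for Myf5, 1.19 for Pax7 1444596_at, 1.13 for Cdh15 and 1.02 for Msc, but 0.74 for Myod1 1418420_at and 0.29 for Myf6. Within each group, though, Myod1 1418420_at and Myf6 were highest on these samples too, on null replicate 1 by 1.13 and 0.40 over the other null samples and on heterozygous replicate 3 by 0.35 and 0.18 over the other heterozygous ones. Marrow genes moved the opposite way on these samples, and their part in the pattern was not tested. Mature muscle genes did not share it: 0 of 20 had their highest pair of values there, and 14 had their lowest pair. The share of all genes with their lowest pair there was not counted, so nothing is read from the 14. Most of the mature muscle genes lie near the top of the scale, and the part of that was not tested.

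**Figure D3:**
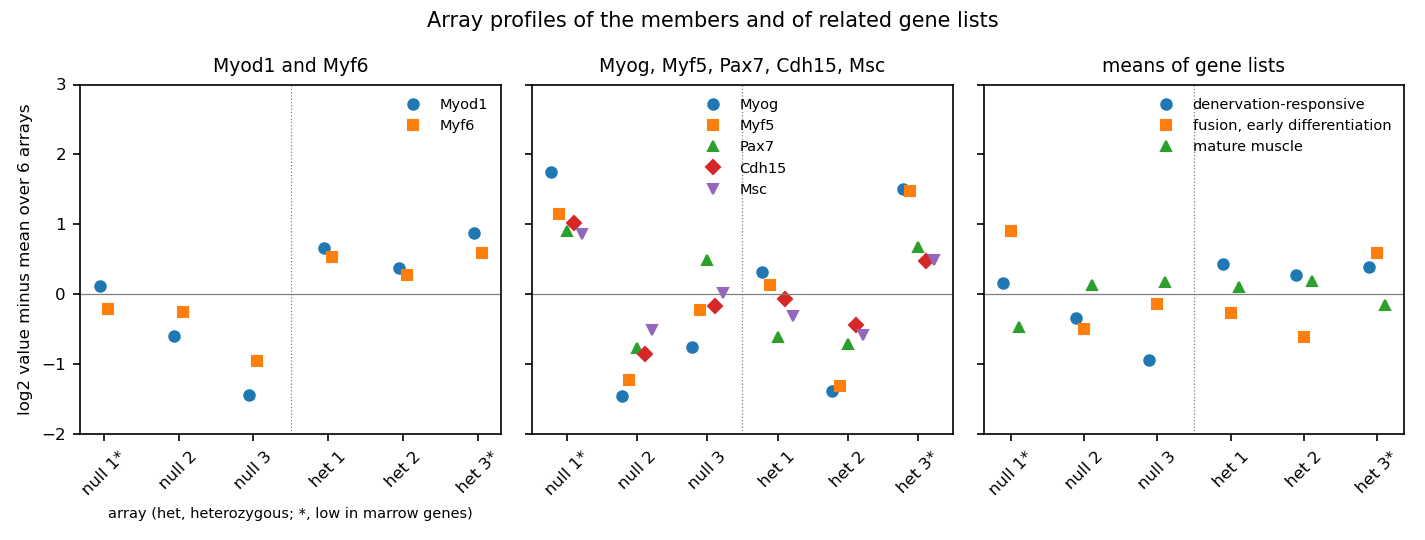
Log2 value minus the mean over 6 arrays (vertical axis) on each array (horizontal axis; an asterisk marks the arrays low in marrow genes), for Myod1 and Myf6, for the other 5 genes on their brightest probe set, and as means of 3 related gene lists. Myod1 and Myf6 separate the genotypes, the other 5 genes peak on the marked arrays of both groups, and the fusion list peaks on the same arrays.

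Likeness between profiles was measured as Pearson's r over the 6 arrays, which the members share together with the 2 marrow-poor samples, and is given as a description. Myf6 was the member most like Myod1 (r = 0.97, and 0.92 for deviations from the group means), and Myf5 the most like Myog (0.97, and 0.97 within groups). The member most like Pax7 was Msc (0.94, and 0.94 within groups). Msc itself was about as like Cdh15 over the 6 arrays (0.94), and more like it within groups (0.97). Myf6 and Pax7 were not alike (-0.26, and 0.0061 within groups). Among 19072 probe sets above the median level, the 5 genes most like each member had r of at least 0.98, a value that many genes can reach with 6 arrays. For Myod1 they were Cyrib, Rras, Bloc1s4, St3gal1 and the muscle gene Sln, which encodes sarcolipin, a regulator of the calcium pump. Those of Myf6 were Mybbp1a, Glul, Ppp1r35, the insulin-pathway kinase Akt2 and Tmem38b. Those of Myog were Uts2r, Commd5, Zfp568, Mrpl41 and the collagen gene Col23a1, and those of Myf5 were Sntb1, Bhlhb9, Cfap36, Fgfrl1 and Lrrn1. Pax7 was followed by Flot2, Tanc2, Sgpl1, Vat1 and Ndn, Cdh15 by Srpk3, Pck2, Ift46, S100a13 and Ddc, and Msc by Mmgt2, Tspan31, the cytokine-signalling inhibitor Socs3, Sf3b6 and Arsa.

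Genes around the myogenic factors were described from 6 lists, with 1 probe set per gene. Over all 18193 genes the median difference was -0.0017, and 50.3% were lower in null callus. With limma's p adjusted over all probe sets, none of the genes below passed (adjusted p = 0.999 for each except Il6, 0.775). An unadjusted p under 0.05 was reached by 2.43% of genes on the lower side and 2.06% on the higher.

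Most genes listed for the response to loss of nerve supply had the same direction as Myod1 and Myf6. Of 10 measured, 8 were lower in null callus. An unadjusted p under 0.05 was reached by 2 of these, and 3 had groups without overlap, against 5.99% of all genes. The list's median difference was -0.81. It was -0.43 without null replicate 3, -1.21 without null replicate 1 and -1.17 without both marrow-poor samples. Gadd45a, a stress gene raised in denervated muscle, was at 9.13, 10.16 and 8.29 in null callus, against 11.27, 10.96 and 10.27 in heterozygous callus, a difference of -1.64 (SE 0.49). Its groups did not overlap, and null replicate 3 was again lowest. Sln was at 13.18, 12.32 and 11.91 in null callus, against 13.49, 13.32 and 13.84 in heterozygous callus, a difference of -1.08 (SE 0.33). The acetylcholine receptor subunit gene Chrnd was at 6.9903, 6.40 and 5.65 in null callus, against 7.04, 6.9914 and 7.22 in heterozygous callus (difference -0.74, SE 0.32). Its highest null and lowest heterozygous values nearly coincided, so its place among the 3 genes without overlap rests on a near tie. Runx1, a transcription factor induced by denervation, averaged 8.19 in null against 9.199 in heterozygous callus (difference -1.01, SE 0.49), and its null replicate 1 (9.19) lay within the heterozygous range. The receptor genes Chrna1 and Chrng, picked after their values were seen, differed by -0.88 (SE 0.43) and -1.05 (SE 0.84). The 2 genes of the list higher in null callus were the receptor gene Chrne (0.13, SE 0.19) and Dach2 (0.074, SE 0.20). Dach2 lay under the 3.52 of silent transcripts on all arrays. For Chrng, null replicate 1 (9.28) lay above all 3 heterozygous samples (8.59, 7.71 and 8.82). For Chrna1, null replicate 1 (11.498) lay above 2 of the 3 (11.41, 11.29 and 11.52). Myog, a member also known to rise on loss of nerve supply, is not in this list, and its groups overlapped (difference -0.30, SE 1.01).

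Partners, inhibitors and cofactors of the MyoD family were divided, with 17 of 31 lower in null callus and a median of -0.0068, which ranged from -0.067 to 0.047 when 1 sample was left out. An unadjusted p under 0.05 was reached by 1 lower and 2 higher genes. Hdac4, a class II histone deacetylase that represses MEF2 and accumulates in denervated muscle, was at 7.69, 8.28 and 7.34 in null callus, against 9.01, 8.94 and 8.51 in heterozygous callus (difference -1.05, SE 0.26). Its groups did not overlap. The helix-loop-helix repressor gene Twist2 differed by 0.35 (SE 0.13). Mdfi, which encodes an inhibitor that holds MyoD family proteins in the cytoplasm, differed by 0.33 (SE 0.13). Its values, from 3.68 to 4.23, lay little above the 3.52 of silent transcripts. Smarcd3, the BAF60C chromatin subunit that works with MyoD, differed by -0.45 (SE 0.22).

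Satellite cell surface genes and upstream regulators lay on the higher side in 18 of 26 cases. Their median was 0.10, and 0 reached an unadjusted p under 0.05. Single samples moved the median, which was 0.032 without null replicate 1, 0.23 without null replicate 2, and 0.055, 0.061 and 0.34 without heterozygous replicates 1, 2 and 3. Without both marrow-poor samples it was 0.24. Six4, a homeobox gene upstream of the myogenic factors, averaged 7.64 in null and 7.96 in heterozygous callus, a difference of -0.32 (SE 0.14). The chemokine receptor gene Cxcr4 differed by 0.24 (SE 0.11), the coactivator gene Eya2 by 0.35 (SE 0.17) and the adhesion gene Vcam1 by 0.39 (SE 0.21). Cxcr4 and Vcam1 are also expressed by leukocytes and vessels. The highest pair of values fell on the marrow-poor samples for 9 of the 26.

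Most myoblast fusion and early differentiation genes peaked on the samples where Myog did. Of 19 measured, 12 had their highest pair of values on null replicate 1 and heterozygous replicate 3, against 16.4% of all genes. Des and Nfatc2 had their lowest pair there. Mymk, which encodes the fusion protein myomaker and was picked after its values were seen, was at 10.92, 6.53 and 7.99 in null callus, against 7.73, 6.21 and 9.86 in heterozygous callus. The embryonic myosin gene Myh3, picked in the same way, was at 12.63, 10.21 and 10.35 in null callus, against 10.58, 9.96 and 11.97 in heterozygous callus. Between genotypes 16 of the 19 were higher in null callus, with a median of 0.23. Dropping single samples moved it widely, to -0.20, 0.65 and 0.41 when null replicates 1, 2 and 3 were left out in turn, and to 0.14, -0.14 and 0.71 when heterozygous replicates 1, 2 and 3 were. Dysf, the membrane repair gene, was the 1 gene at an unadjusted p under 0.05 and went the other way, at 7.38, 7.49 and 7.50 in null against 8.04, 7.91 and 7.67 in heterozygous callus (difference -0.41, SE 0.13). Ncam1 differed by -0.91 (SE 0.48), the adhesion gene Kirrel by 0.42 (SE 0.23) and Jam2 by 0.20 (SE 0.12).

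Mature muscle genes had small differences, with 17 of 20 lower in null callus but a median of -0.063 and 0 at an unadjusted p under 0.05. The median ranged from -0.17 (without null replicate 3) to 0.086 (without null replicate 1) when 1 sample was left out. The calcium channel gene Cacna1s differed by -0.57 (SE 0.29), the calcium release channel gene Ryr1 by -0.38 (SE 0.31), Mb, which encodes myoglobin, by -0.34 (SE 0.37) and Myoz1 by 0.22 (SE 0.22). With the mean of this list subtracted on each array, Myod1 1418420_at differed by -1.18 (SE 0.43) and Myf6 by -0.84 (SE 0.35). Most of the list lies near the top of the scale, and how well its mean follows muscle content was not tested. Under that setting 5 probe sets passed limma's test across all probe sets, 3 of Krt8, 1 of Krt18 and the unnamed 1447360_at, none of them a member.

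Of 15 measured genes of signals to myogenic cells, the receptor genes Notch1 and Acvr2b among them, 9 were higher in null callus. The list's median was 0.18 (0.077 to 0.17 when 1 sample was left out). An unadjusted p under 0.05 in limma's test was reached by 2 higher and 2 lower genes, against 2.06% and 2.43% of all genes. Groups without overlap were found for 2 lower genes, against 5.99% of all genes, and for 2 higher genes. The share of all genes without overlap on the higher side was not counted, so nothing is read from the latter. Fst, which encodes the myostatin inhibitor follistatin, was at 7.59, 7.74 and 7.20 in null callus, against 7.998, 8.03 and 7.91 in heterozygous callus (difference -0.47, SE 0.16), and Gdf11, a close relative of myostatin, differed by -0.43 (SE 0.11). The Notch ligand gene Jag1 differed by 0.45 (SE 0.18). Il6 was at 3.77, 3.68 and 3.91 in null callus, and its heterozygous values of 2.94, 2.87 and 2.72 were not above the 3.52 of silent transcripts.

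**Figure D4:**
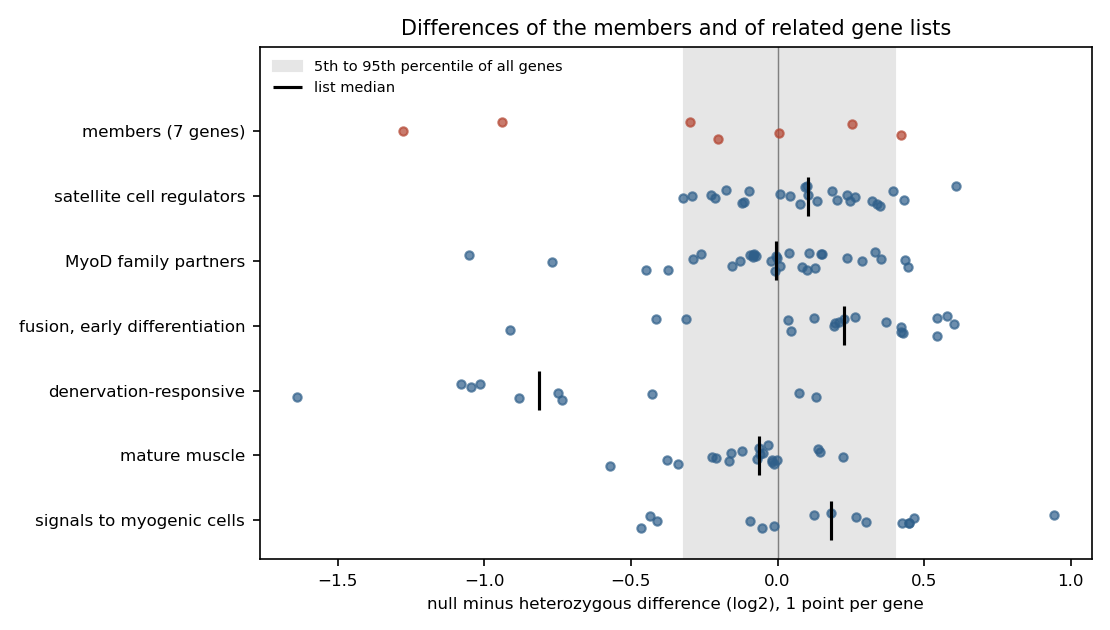
Null minus heterozygous difference in log2 units (horizontal axis), 1 point per gene, for the 7 members and 6 related lists, with each list's median as a bar and the 5th to 95th percentile of all genes (-0.32 to 0.40) shaded. The shading is the span of single genes and is no scale for a median. The denervation-responsive genes have a median of -0.81, and the other 5 list medians lie between -0.063 and 0.23.

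Other cells that the callus can hold were followed with the same arrays. The macrophage list was higher in null callus in 9 of 9 genes, and the mean of its genes, each centred over the arrays, was 0.93, -0.34 and 0.36 on the null arrays, against -0.28, -0.78 and 0.11 on the heterozygous ones. Within each group it was thus highest on the sample where Pax7 and Myog were highest. The smooth muscle list, which shares Des with skeletal muscle, was higher in 8 of 10 genes (median 0.25), the fibroblast list in 7 of 8 (0.40), the Schwann cell list in 5 of 7 (0.08) and the B cell list in 6 of 9 (0.10). Chondrocyte and osteoblast genes were lower in null callus in 8 of 10 and 8 of 9 cases (medians -0.23 and -0.29). Neutrophil genes had a median of 0.36 and erythroid genes of -0.26. The part of these cells in the differences of Myod1 and Myf6 was not tested.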

How the data were processed

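Callus RNA of 6 samples, 3 null and 3 heterozygous by the genotype label, was measured on 6 Affymetrix arrays. The deposited table gives 1 log2 value per probe set and array. That scale was taken from the range of the values, and no source used here names the software or the normalisation. The columns have nearly equal medians, so a shift of all genes together cannot be seen. Of 45101 probe sets, 64 controls were left out. The platform annotation gives 34945 of the others exactly 1 symbol, and lists used the brightest probe set of each of 18193 genes.

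All 45037 probe sets were fitted on the deposited log2 values with limma 3.58.1 in R 4.3.3 (lmFit, eBayes, two-sided, Benjamini-Hochberg, threshold 0.05), with genotype as the only term, 4 residual and 2.50 prior degrees of freedom and a median SE of 0.15. The number of arrays limits the precision: with 3 against 3, an exact permutation p cannot go below 0.1. The fit was tested on simulated data. The members, lists and alternatives were chosen with earlier results of these data known. In each of the 6 related lists up to 4 genes with the lowest unadjusted p are named, and the 5 genes most like each member by r, predicted transcripts left out. The level of silent transcripts came from 9 Y-linked and 3 Xist probe sets on arrays without the transcript. Xist was high on 2 of the 6 arrays, so by these transcripts the samples were of both sexes. Sex was not a term in the fit, and its part in the differences was not tested. Alternatives were other normalisations, weights, priors and filters, a marrow covariate, levels relative to mature muscle, and leaving out arrays. Chromosome neighbours came from RefSeq (GRCm38.p6), and promoter windows are RefSeq's.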

Additional observations from a re-analysis of the deposited data

How the results depend on the processing

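The calls over all probe sets, the members' differences and the medians of the 6 related lists were recomputed under the other settings that apply to each. Single genes of those lists, the correlations, the counts of highest pairs and the lists of other cells were not. The number of probe sets at an unadjusted p under 0.05, 1660 in the reported fit, was 4631 with array weights, 3489 with the marrow score as a covariate, 3453 without both marrow-poor samples, 746 among probe sets at or above the median level, 771 with 1 probe set per gene (fewer tested in both) and 401 relative to the mature muscle mean. It was 4031 by groups without overlap and ranged from 1048 (without null replicate 3) to 2721 (without heterozygous replicate 3) when 1 sample was left out. Adjusted calls numbered 0, except 1 with the marrow covariate, the unnamed 1447360_at, and 5 relative to mature muscle. The cause of these shifts was not tested.

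Myod1 1418420_at kept its sign in 14 of 14 alternatives (-1.65 to -0.88), as did Myf6 (-1.15 to -0.70) and Pax7 1444596_at (0.076 to 0.91). For Myod1 and Myf6, whose groups did not overlap, leaving out samples could not have turned the sign. Msc kept it in 13, Myog and Myf5 in 12 (-1.25 to 0.38 and -0.91 to 0.49) and Cdh15 in 7 (-0.51 to 0.43). Myod1 1447675_x_at was at -0.22 relative to mature muscle, where the median of MyoD partners was 0.093. Without single samples the denervation list's median ranged from -1.21 to -0.43, that of satellite cell regulators from 0.032 to 0.34. No paired analysis was possible because the labels give no numbers that pair null and heterozygous samples. With 3 samples a group, differences within about 1 SE, those of 5 of the 7 genes, could not be resolved. The larger differences of Myod1 and Myf6 were not tested, because the genes were picked from these same differences.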
